A study of Mus musculus with 8 samples.

Results

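The transcripts of 9 receptors that raise or lower the activation of lymphocytes were followed through the cells of MC38 tumors: Pdcd1, Ctla4, Lag3, Havcr2, Tigit, Icos, Tnfrsf4, Tnfrsf9 and Tnfrsf18. They were chosen by name as co-inhibitory and co-stimulatory receptor genes, and they are 9 of the 24787 genes listed in the 8 tumors. MC38 is a colon carcinoma line from a C57BL/6 mouse, and the study's mice were 8-week-old female C57BL/6J animals without an engineered allele in these groups. All tumors were dissociated 24 hours after injection of saline (3 tumors), of free R848 (3 tumors), a small molecule agonist of Toll-like receptors 7 and 8, or of medium R848-BPDs (2 tumors), a bottlebrush polymer prodrug that releases R848 at an intermediate rate. The dose given to these tumors is not stated in the sources used here. Cells with and without the leukocyte antigen CD45 were separated on magnetic columns and mixed 9 to 1 before single-cell capture on Seq-Well arrays, so the tumor's own ratio of leukocytes to other cells was not kept.

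Lymphocytes carry receptors that add to or subtract from the signal of the antigen receptor. Pdcd1 (PD-1), Ctla4, Lag3, Havcr2 (TIM-3) and Tigit are co-inhibitory. PD-1 is engaged by the products of Cd274 and Pdcd1lg2, CTLA-4 competes with CD28 for the products of Cd80 and Cd86, and TIGIT competes with CD226 for the product of Pvr. Icos, Tnfrsf4 (OX40), Tnfrsf9 (CD137) and Tnfrsf18 (GITR) are co-stimulatory. ICOS belongs to the CD28 family and the other 3 to the tumor necrosis factor receptor superfamily, which signals through TRAF adaptors to NF-kB. Most of these genes are low in resting lymphocytes and are induced on activation, and regulatory T cells, marked by Foxp3, are known to carry several of them at high levels. TIM-3 is also known on macrophages and dendritic cells (DCs).

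In the GENCODE vM21 annotation of GRCm38, several of the genes lie side by side. Ctla4 (chr1:60887000-60915832) and Icos (chr1:60977927-61000320) are both on the plus strand, 62.1 kb apart, and the end of Cd28 lies 114 kb before Ctla4. Tnfrsf4 (chr4:156013843-156016612) and Tnfrsf18 (chr4:156026164-156028895) are 9.55 kb apart on the plus strand, and Tnfrsf9 (chr4:150914562-150946102) is on the same chromosome. The promoters of 4 of the genes with called differences below are given here as the 250 bases before the start in RefSeq (GRCm38.p6), 5′ to 3′ on the strand of the gene. RefSeq gives Tnfrsf9 more than 1 start, and 2 are shown. Capitals mark matches on either strand to the NFAT core TGGAAA, the AP-1 site TGANTCA or the NF-kB consensus.
Ctla4, chr1:60908775-60909024, plus strand: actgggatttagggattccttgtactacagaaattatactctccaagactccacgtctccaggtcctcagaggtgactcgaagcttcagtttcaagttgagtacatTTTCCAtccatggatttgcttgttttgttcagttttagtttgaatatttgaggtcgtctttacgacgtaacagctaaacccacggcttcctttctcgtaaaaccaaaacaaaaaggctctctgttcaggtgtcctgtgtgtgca
Tnfrsf4, chr4:156013445-156013694, plus strand: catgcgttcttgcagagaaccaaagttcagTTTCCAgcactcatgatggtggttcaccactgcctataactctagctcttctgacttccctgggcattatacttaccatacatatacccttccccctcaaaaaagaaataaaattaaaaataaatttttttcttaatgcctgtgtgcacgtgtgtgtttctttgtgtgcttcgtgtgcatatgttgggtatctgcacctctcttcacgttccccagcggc
Tnfrsf18, chr4:156026072-156026321, plus strand: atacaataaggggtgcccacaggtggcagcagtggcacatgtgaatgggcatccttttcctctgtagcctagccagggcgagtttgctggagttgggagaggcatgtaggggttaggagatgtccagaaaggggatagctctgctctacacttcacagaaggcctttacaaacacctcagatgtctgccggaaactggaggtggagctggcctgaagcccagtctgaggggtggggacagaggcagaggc
Tnfrsf9, chr4:150919905-150920154, plus strand: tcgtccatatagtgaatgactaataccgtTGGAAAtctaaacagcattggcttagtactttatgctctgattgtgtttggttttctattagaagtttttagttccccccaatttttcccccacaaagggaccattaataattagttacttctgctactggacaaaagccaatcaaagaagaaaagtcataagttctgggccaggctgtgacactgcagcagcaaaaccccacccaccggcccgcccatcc
Tnfrsf9, chr4:150927749-150927998, plus strand: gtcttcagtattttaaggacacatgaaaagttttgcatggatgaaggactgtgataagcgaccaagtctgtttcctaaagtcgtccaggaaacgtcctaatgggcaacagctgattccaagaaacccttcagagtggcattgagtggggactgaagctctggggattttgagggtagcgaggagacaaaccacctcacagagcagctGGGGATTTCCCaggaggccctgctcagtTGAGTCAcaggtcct

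In these windows, the NFAT core was found 144 bases before the start of Ctla4, 220 before that of Tnfrsf4 and 221 before the first start of Tnfrsf9. The second start of Tnfrsf9 had overlapping matches to the NF-kB consensus 43 and 42 bases before it and an AP-1 site 15 bases before it. Of 32851 promoters of this length in the same table, 18.6% held the NFAT core, 6.75% the AP-1 site and 7.25% the NF-kB consensus, so single matches of this kind are frequent. The TATA box TATAAA, found in 12.4% of all promoters, was in none of the members' windows. Havcr2 had an AP-1 site 200 bases before its start, and Tnfrsf18, Pdcd1 and Tigit held none of the motifs searched. Of the 9 members, 7 had an entry in the table, and Icos and Lag3 had none.

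The 8 tumors held 5867590 to 12422614 unique molecular identifiers (UMIs, each counting 1 captured transcript), and 9886 of 10791 barcodes passed the filters, with 3247 to 6928 UMIs in the median cell of a tumor. Pairs of tumors shared 9 to 14 barcodes. Cells were sorted into classes by marker genes after clustering without the receptors, giving 715 T-like, 994 natural killer (NK)-like, 5251 monocyte/macrophage-like, 634 DC-like and 1637 MC38-like cells. T-like cells with a UMI of Cd8a or Cd8b1 were called Cd8-positive (304 cells, 17 to 66 per tumor) and the others Cd8-negative (411 cells, 25 to 85 per tumor). A UMI of Cd3d, Cd3e or Cd3g, which define T cells, was found in 97.4% of Cd8-positive, 67.9% of Cd8-negative, 9.26% of NK-like and 1.12% of monocyte/macrophage-like cells. The lower share in Cd8-negative cells came with 1 T-like cluster of 234 cells, in which 52.1% had a Cd3 UMI and 62.8% a UMI of the macrophage gene Lyz2, against 94.2% and 15.2% in the other T-like clusters. That cluster made up 17.6% to 60% of the T-like cells of a tumor, with the highest share in medium R848-BPD replicate 2, and results in T-like cells are given with and without it where this matters.

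The first question is which cells of the tumor carried each receptor. Levels are given as counts scaled to 1000000 UMIs of the class in a tumor (CPM), as the mean ± SD of 8 tumors, and are compared only within a gene. They are a description, without a test between classes. Pdcd1 was highest in Cd8-positive T-like cells (342 ± 138 CPM), followed by Cd8-negative T-like cells (210 ± 105), with overlapping ranges. It was lower in DC-like (37.9 ± 24.9) and NK-like cells (32.0 ± 21.0), whose ranges also overlapped, and the highest NK-like or DC-like value, 85.8 CPM, was below the lowest T-like value, 108 CPM. In monocyte/macrophage-like cells it was at 1.66 ± 1.03 CPM and in MC38-like cells at 0.596 ± 0.480 CPM. Ctla4 was at a like level in Cd8-positive (152 ± 119) and Cd8-negative cells (146 ± 72.6), and reached 64.2 ± 50.0 in NK-like and 7.24 CPM in DC-like cells (range 0 to 12.05). The NK-like values, 18.4 to 162 CPM, overlapped those of both T-like classes.

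Tigit was at 73.0 ± 43.7 CPM in Cd8-positive, 80.4 ± 34.7 in Cd8-negative and 36.3 ± 12.2 in NK-like cells, and at 1.72 ± 2.84 CPM or less in DC-like, monocyte/macrophage-like and MC38-like cells. Lag3, whose product binds MHC class II, was sparse. Only 71 of its UMIs were in Cd8-positive cells (30.7 ± 25.1 CPM), 18 in Cd8-negative (10.1 ± 11.2) and 48 in NK-like cells (8.64 ± 5.56), and of the 5 leukocyte classes it passed the filter on low counts only in NK-like cells. Havcr2 stood apart from the other co-inhibitory genes, because its level in monocyte/macrophage-like cells (195 ± 64.6 CPM) was near that in Cd8-positive T-like cells (185 ± 159), whereas Cd8-negative T-like cells had 79.9 ± 30.5 CPM. It was also found in NK-like (125 ± 47.6) and DC-like cells (125 ± 83.9), and, in the 6 tumors with at least 10 such cells, in neutrophil-like cells (187 ± 88.6). In MC38-like cells it was at 6.41 ± 3.97 CPM.

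Of the co-stimulatory receptors, Icos was shared by the lymphocytes, at 351 ± 176 CPM in Cd8-positive, 452 ± 195 in Cd8-negative and 166 ± 53.7 in NK-like cells, and at 10.9 ± 11.4 in DC-like cells. Tnfrsf4 divided the lymphocytes. It was at 157 ± 111 CPM in Cd8-positive and 181 ± 127 in Cd8-negative T-like cells but at 2.81 ± 3.01 CPM in NK-like cells, where 26 UMIs were found in all, and its DC-like level, 104 ± 53.0 CPM, was within the T-like range. Tnfrsf9 was highest in NK-like cells (1573 ± 267 CPM, range 1345 to 1977), above the highest T-like value of 1234 CPM in every tumor. It was at 923 ± 225 in Cd8-positive, 891 ± 224 in Cd8-negative and 350 ± 268 in DC-like cells. Tnfrsf18 was at 461 ± 143, 406 ± 172 and 220 ± 21.8 CPM in Cd8-positive, Cd8-negative and NK-like cells, and at 125 ± 54.4 in DC-like cells.

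Cells that should lack a receptor give the level of background, since free RNA in the suspension reaches all cells. With every cell drawn to 1000 UMIs, Pdcd1 was found in 24.8% ± 6.90 of Cd8-positive cells against 0.108% ± 0.144 of monocyte/macrophage-like cells, and Ctla4 in 5.31% ± 4.53 of NK-like against 0.0517% ± 0.0714 of monocyte/macrophage-like cells (SD, n = 8 tumors). Tnfrsf9 was found in 73.3% ± 5.44 of NK-like, 18.7% ± 10.6 of DC-like and 1.85% ± 1.60 of monocyte/macrophage-like cells, against 0.938% ± 1.11 of MC38-like cells. The median UMI count of a class in a tumor was 3215 to 7843 for NK-like, 3186 to 6619 for monocyte/macrophage-like and 7897 to 16910 for MC38-like cells before the draw. Within the monocyte/macrophage-like class, Tnfrsf9 was concentrated in 1 cluster of 782 cells led by Mmp12, Inhba and Cxcl1, at 126 ± 102 CPM, against 12.01 ± 13.4 in the largest cluster.

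**Figure D1:**
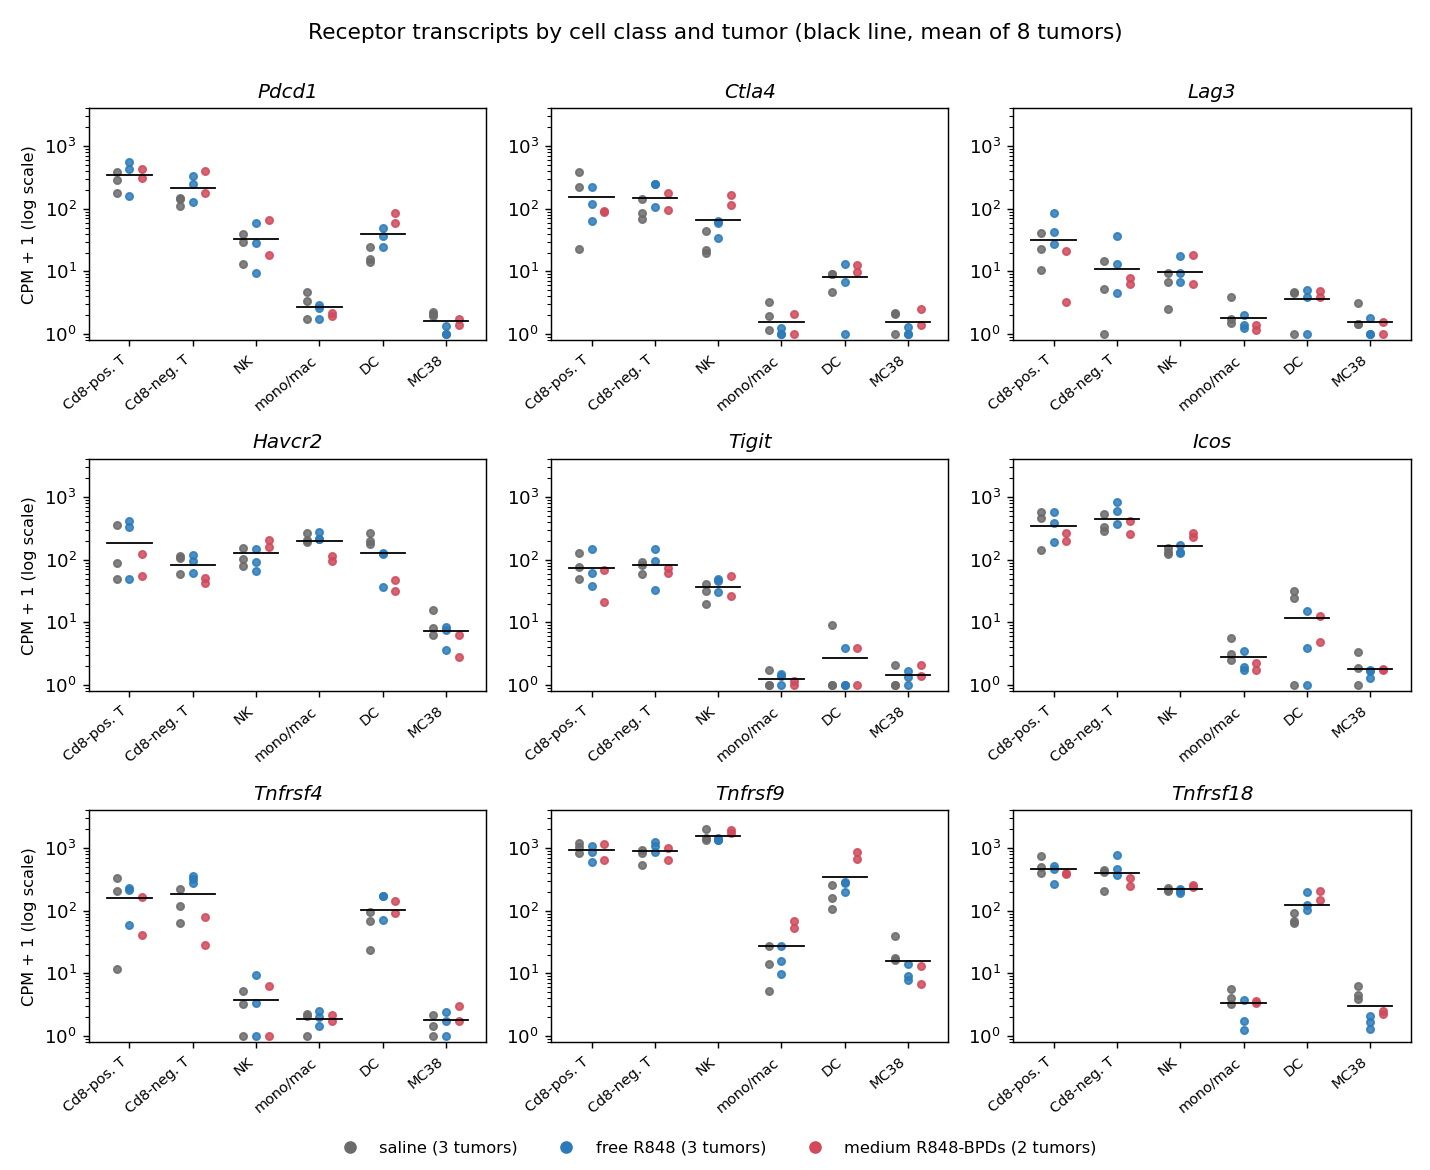
Level of each receptor by cell class: each point is 1 tumor, in CPM plus 1 on a log axis, coloured by treatment, and the black line is the mean of 8 tumors. Pdcd1, Ctla4, Tigit and Icos fall by more than 1 decade from the T-like to the monocyte/macrophage-like cells, whereas Havcr2 stays near 195 CPM there, and Tnfrsf9 is highest in NK-like cells at 1573 CPM.

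The second question is how the receptors differed between treatments in each class. Counts were summed per tumor and class and fitted for all genes by quasi-likelihood in edgeR. P-values were adjusted over the genes of a class by the method of Benjamini and Hochberg, and 0.05 was the threshold. The members gave 33 tests per comparison over the 5 classes of leukocytes. Medium R848-BPDs differed from free R848 in 3 of these, against 0.757% of all 35395 pairs of gene and class tested. Medium R848-BPDs differed from saline in 7, against 4.94% of all pairs. Free R848 differed from saline in 0, against 0.147% of all pairs. In that comparison 7 of the 33 had an unadjusted p under 0.05, against 8.81% of all pairs, and DESeq2 called 0. Of these 7, 4 were in DC-like cells, where Pdcd1 (1.28), Tnfrsf4 (1.23), Tnfrsf18 (0.91) and Havcr2 (-1.02) had adjusted p of 0.128 to 0.162, and the others were Ctla4 in NK-like and Ctla4 and Tnfrsf4 in Cd8-negative cells. The comparisons share tumors and are not independent of each other, and p-values measure the spread between tumors. Of the 5 classes, Lag3 could be tested only in NK-like cells, Tnfrsf4 not in NK-like cells, and only 4 and 5 members passed the filter in monocyte/macrophage-like and DC-like cells.

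**Figure D2:**
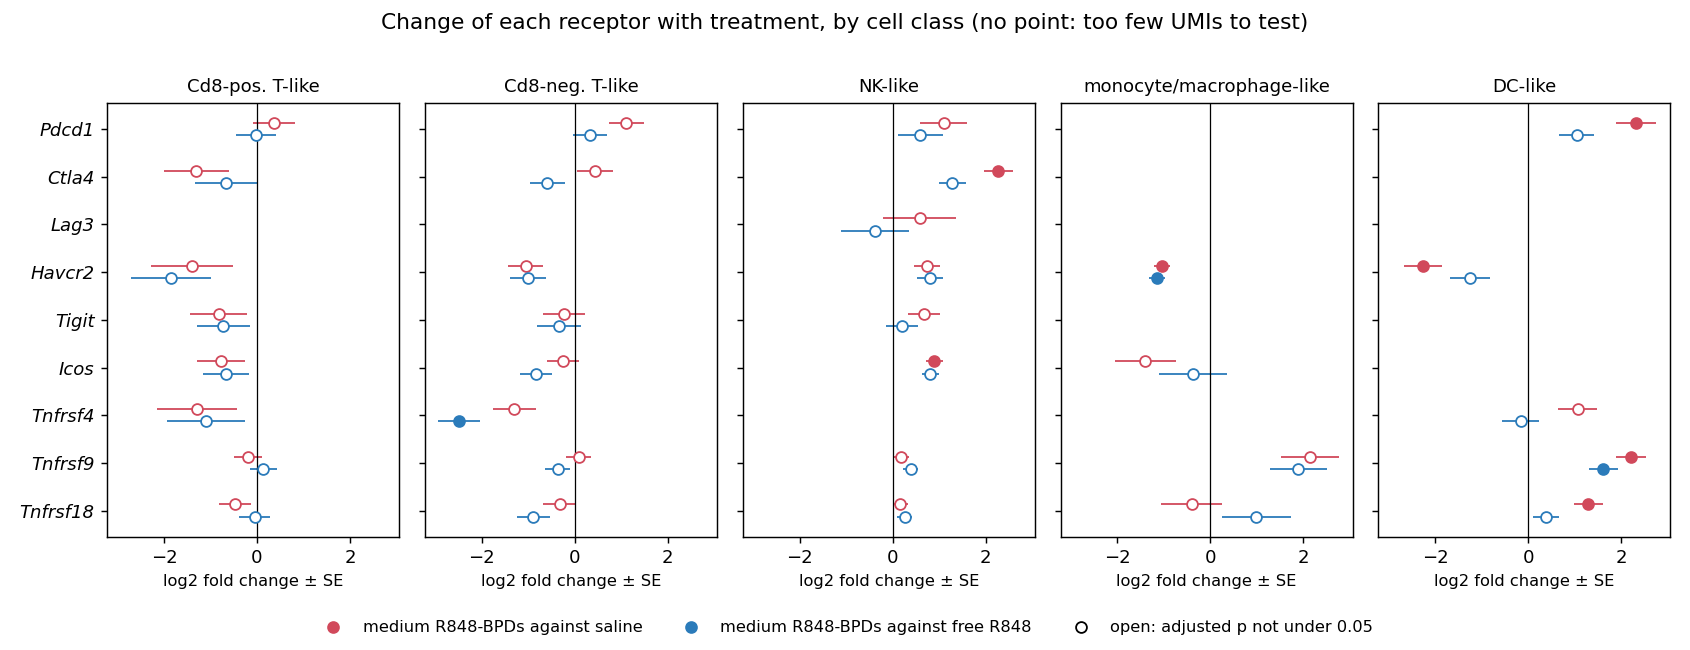
Log2 fold change ± SE of each receptor in 5 cell classes, for medium R848-BPDs against saline (red) and against free R848 (blue), where filled points passed an adjusted p of 0.05. The filled points are Tnfrsf4 in Cd8-negative T-like cells, Ctla4 and Icos in NK-like cells, Havcr2 in monocyte/macrophage-like cells and Pdcd1, Havcr2, Tnfrsf9 and Tnfrsf18 in DC-like cells.

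In NK-like cells, Ctla4 and Icos rose after medium R848-BPDs against saline, by 4.85-fold and 1.86-fold, and these were 2 of 8 members tested, against 0.846% of all genes. Both are CD28-family genes of the same stretch of chromosome 1. Ctla4 was at 115 and 162 CPM in the medium R848-BPD tumors, at 61.9, 58.0 and 33.7 in the free R848 tumors and at 20.7, 43.8 and 18.4 in the saline tumors. Both prodrug tumors were above all the others. The log2 fold change against saline was 2.28 (SE 0.31, adjusted p = 0.00064 by edgeR) and against free R848 1.28 (SE 0.30, adjusted p = 0.0848), and free R848 against saline gave 0.99 (SE 0.31, adjusted p = 0.946). With cells drawn to 1000 UMIs, Ctla4 was found in 12.2% ± 1.97 of NK-like cells after medium R848-BPDs (n = 2), 3.59% ± 1.71 after free R848 and 2.42% ± 1.40 after saline (n = 3 each). The summed level of the 3 Cd3 genes, which mark T cells, in NK-like cells was 66.1 and 4.26 CPM after medium R848-BPDs, 25.3 to 112 after free R848 and 73.5 to 101 after saline. The prodrug tumors were below all saline tumors, and the free R848 tumors overlapped with both. The part of the Cd3 level in the Ctla4 result was not tested beyond the values in the next sentence. In NK-like cells without a Cd3 UMI, chosen after seeing the data, Ctla4 was at 116 and 169 CPM after medium R848-BPDs, 38.4 to 60.7 after free R848 and 14.98 to 46.3 after saline, with a log2 fold change against saline of 2.33 (adjusted p = 0.000602).

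Icos was at 266 and 230 CPM in NK-like cells of the medium R848-BPD tumors, at 169, 125 and 133 after free R848 and at 121, 153 and 132 after saline. Both prodrug tumors were again above all 6 others. The log2 fold change was 0.89 against saline (SE 0.18, adjusted p = 0.0204) and 0.81 against free R848 (SE 0.18, adjusted p = 0.0815). Leaving out medium R848-BPD replicate 1 (0.76, adjusted p = 0.298) or saline replicate 1 (0.82, adjusted p = 0.0959) ended the call against saline. Havcr2 had a log2 fold change of 0.74 against saline (SE 0.28, adjusted p = 0.318) and 0.81 against free R848 (SE 0.28, adjusted p = 0.393) and did not pass. Tnfrsf9, the receptor with the highest NK-like level among classes, was at 1723 and 1937 CPM after medium R848-BPDs, 1345 to 1457 after free R848 and 1352 to 1977 after saline, and its log2 fold change against saline was 0.18 (SE 0.17, adjusted p = 0.796). Against free R848 its log2 fold change was 0.39 (SE 0.17, adjusted p = 0.543 by edgeR), with both prodrug tumors above all free R848 tumors, and did not pass. Pdcd1, Lag3, Tigit and Tnfrsf18 had log2 fold changes of 1.10, 0.59, 0.67 and 0.16 against saline and did not pass.

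Other genes of the same pathways also moved in NK-like cells, where 0.846% of all genes were called against saline and 0.294% against free R848. Among 9 other receptors tested, 1 rose in each comparison with medium R848-BPDs. This was Tnfrsf8, which encodes CD30, with a log2 fold change of 3.19 (SE 0.39) against saline and 2.95 (SE 0.40) against free R848. Among 17 genes of receptor signalling, Traf1, an adaptor of tumor necrosis factor receptors, rose (0.88 against saline, 0.84 against free R848) and Ptpn6, which encodes the phosphatase SHP-1, fell (-1.18 and -0.99). Among 25 genes of activation and exhaustion tested, the cytotoxic genes Gzmb (1.31, SE 0.15) and Prf1 (1.05, SE 0.16) and the transcription factor Id2 (0.75) rose against saline. The immediate response genes Nr4a1 (-1.32), Nr4a2 (-1.10) and Nr4a3 (-1.09) and the transcription factor Tcf7 (-1.18) fell. The median of this list was 0.23 against -0.02 for all genes. None of the 6 ligands tested in NK-like cells passed in any comparison.

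**Figure D3:**
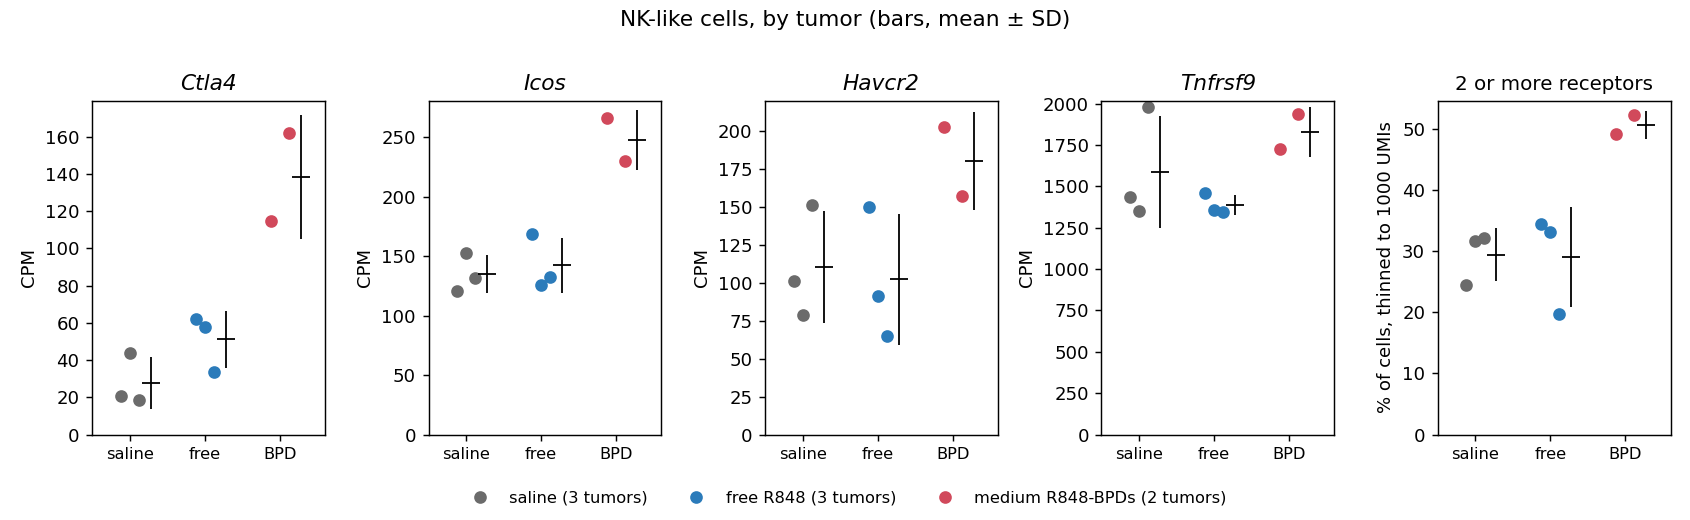
NK-like cells by tumor: CPM of 4 receptors and the share of cells with 2 or more of the 9 receptors after drawing each cell to 1000 UMIs, with the mean ± SD of each treatment beside its points. Ctla4 (115 and 162 CPM) and Icos (266 and 230 CPM) of the 2 medium R848-BPD tumors lie above all 6 other tumors. Tnfrsf9 of the medium R848-BPD tumors lies above the free R848 tumors and overlaps with the saline tumors.

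In monocyte/macrophage-like cells, Havcr2 fell after medium R848-BPDs, by 2.21-fold against free R848 and by 2.06-fold against saline. It was 1 of 4 members tested, against 1.76% of all genes called in the first comparison and 7.3% in the second. The level was 113 and 93.0 CPM in the medium R848-BPD tumors, 277, 211 and 214 after free R848 and 203, 263 and 188 after saline, and the prodrug tumors were below all the others. The log2 fold change was -1.14 against free R848 (SE 0.17, adjusted p = 0.0187 by edgeR) and -1.04 against saline (SE 0.17, adjusted p = 0.0100), and free R848 against saline gave 0.10 (SE 0.15, adjusted p = 0.824). The call against free R848 was lost with any 1 of the 5 tumors of that comparison left out (adjusted p 0.0598 to 0.196), with log2 fold changes of -1.24 to -1.02, and the call against saline was lost without medium R848-BPD replicate 2 (-0.96, adjusted p = 0.115). The class holds 8 clusters whose sizes differed between tumors. Within them, the medium R848-BPD tumors were below every free R848 tumor in 8 of 8 clusters and below every saline tumor in 6 of 8, counting tumors with at least 10 cells of a cluster, which left 1 prodrug tumor in the cluster led by Chi3l3 and Vcan.

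Tnfrsf9 in monocyte/macrophage-like cells was at 51.2 and 66.6 CPM after medium R848-BPDs, 8.88, 14.98 and 25.9 after free R848 and 13.2, 4.17 and 25.9 after saline. The prodrug tumors were above all others, but the log2 fold changes, 2.15 against saline (SE 0.62, adjusted p = 0.0720) and 1.90 against free R848 (SE 0.62, adjusted p = 0.187), did not pass. In the cluster led by Mmp12, where most of its UMIs were, Tnfrsf9 was at 269 and 293 CPM after medium R848-BPDs, 87.5, 130 and 103 after free R848 and 30.7, 32.2 and 63.3 after saline. This cluster was singled out after its values were seen and was not tested. Icos and Tnfrsf18, the other members tested, were at 4.63 CPM or less in every tumor and did not pass.

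Several ligands of the receptors changed in the same cells, in comparisons that called 7.3% of all genes against saline and 1.76% against free R848. Of 10 tested against saline, Cd274, which encodes the PD-1 ligand PD-L1, rose (1.43, SE 0.29), and Cd86, which encodes a ligand of CD28 and CTLA-4, and Icosl, which encodes the ligand of ICOS, fell (-1.64, SE 0.19, and -1.96, SE 0.29). Against free R848, Cd86 (-1.20) and Icosl (-1.53) fell. Among 20 genes of activation and exhaustion, the transcription factor Batf rose (1.40 against saline, 0.73 against free R848), and Nr4a1 (-1.72), Nr4a2 (-2.13) and Cd69 (-0.77) fell against saline, as did Nfkb1 (-0.88) among the genes of receptor signalling. None of the other receptors passed.

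In DC-like cells, 4 of 5 members tested changed after medium R848-BPDs against saline, in a comparison that called 16.1% of all genes, and 1 changed against free R848, against 0.789% of all genes. Tnfrsf9 was at 658 and 869 CPM after medium R848-BPDs, 289, 272 and 197 after free R848 and 106, 159 and 252 after saline, and the prodrug tumors were above all others. Its log2 fold change was 2.22 against saline (SE 0.32, adjusted p = 0.000795) and 1.62 against free R848 (SE 0.31, adjusted p = 0.0221). The latter was lost when replicate 2 of the medium R848-BPD tumors (adjusted p = 0.253) or replicate 2 or 3 of the free R848 tumors (adjusted p = 0.0760 and 0.110) was left out. Pdcd1 was at 85.8 and 57.1 CPM after medium R848-BPDs, 36.1, 48.7 and 23.5 after free R848 and 12.9, 23.8 and 14.8 after saline, and rose against saline by 2.32 on the log2 scale (SE 0.43, adjusted p = 0.00274). The prodrug tumors were above all others, and 1 saline tumor (23.8 CPM) was above 1 free R848 tumor (23.5 CPM). Its call was lost without medium R848-BPD replicate 1 (1.99, adjusted p = 0.0783).

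Tnfrsf18 was at 206 and 145 CPM in DC-like cells after medium R848-BPDs, 197, 123 and 103 after free R848 and 66.9, 63.5 and 92.7 after saline. Both R848 groups were above all saline tumors, and the log2 fold change of medium R848-BPDs against saline was 1.29 (SE 0.31, adjusted p = 0.0106). It was lost without medium R848-BPD replicate 1 (adjusted p = 0.153) or saline replicate 1 (adjusted p = 0.0943). Havcr2 fell against saline by 2.27 on the log2 scale (SE 0.41, adjusted p = 0.00246), with 47.3 and 30.5 CPM after medium R848-BPDs, 36.1, 129 and 124 after free R848 and 175, 262 and 196 after saline. All saline tumors were above all the others. Tnfrsf4 had a log2 fold change of 1.06 against saline and did not pass (SE 0.42, adjusted p = 0.107).

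The DC-like class holds 2 clusters whose shares moved with the treatment. The cluster led by Fscn1, Ccl22, Il12b and Ccr7, genes known from mature DCs, made up 85.2% and 85.2% of DC-like cells after medium R848-BPDs (98 and 52 cells), 81.4%, 52.7% and 55.9% after free R848 (35, 39 and 38 cells) and 19.1%, 29.2% and 28.7% after saline (31, 7 and 25 cells). The other cluster was led by Kmo and H2-DMb2. In the mean over tumors with at least 10 cells of a cluster (7 tumors for the Fscn1 and 6 for the Kmo cluster, so not the same tumors), the Fscn1 cluster had the higher Tnfrsf9 (560 against 26.8 CPM), Pdcd1 (52.3 against 11.5), Tnfrsf4 (168 against 6.89) and Tnfrsf18 (180 against 44.0) and the lower Havcr2 (50.7 against 236), given as a description. With each cluster tested alone, an alternative chosen after seeing the data, 0 members passed in either comparison by edgeR. In the Kmo cluster the medium R848-BPD group was 1 tumor of 17 cells, assumed to vary like the other groups, so the lack of calls there says little. At an unadjusted p under 0.05 were 3 of 5 members against saline and 1 of 5 against free R848 in the Fscn1 cluster. Of all genes tested in the whole DC-like class, 29.4% and 11.6% had such a p, and the shares within the cluster are not given here. In the Fscn1 cluster Tnfrsf9 had a log2 fold change of 0.91 against saline (adjusted p = 0.225) and 1.08 against free R848 (adjusted p = 0.103). There, Tnfrsf9 was at 770 and 981 CPM after medium R848-BPDs, 347, 530 and 342 after free R848 and 251, 464 and 700 after saline. Within the same cluster, Pdcd1 was at 95.1 and 65.4 CPM after medium R848-BPDs (55 and 15 UMIs), 43.4, 94.8 and 42.1 after free R848 and 0, 48.8 and 25.5 after saline (0, 2 and 2 UMIs). The saline tumor at 48.8 CPM had 7 cells of this cluster and was left out of the test, in which Pdcd1 had an adjusted p of 0.0595 against saline. Over all settings run, this one included, the log2 fold change of Pdcd1 in DC-like cells against saline was 1.99 to 3.20. Havcr2 was at -2.07 (adjusted p = 0.1302) and Tnfrsf18 at 0.58 (adjusted p = 0.496) against saline on the log2 scale. In the Kmo cluster Havcr2 was at -0.38 (adjusted p = 0.787), with 1 prodrug tumor of at least 10 cells. How much of the change in the class came with the shift between clusters was not tested.

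**Figure D4:**
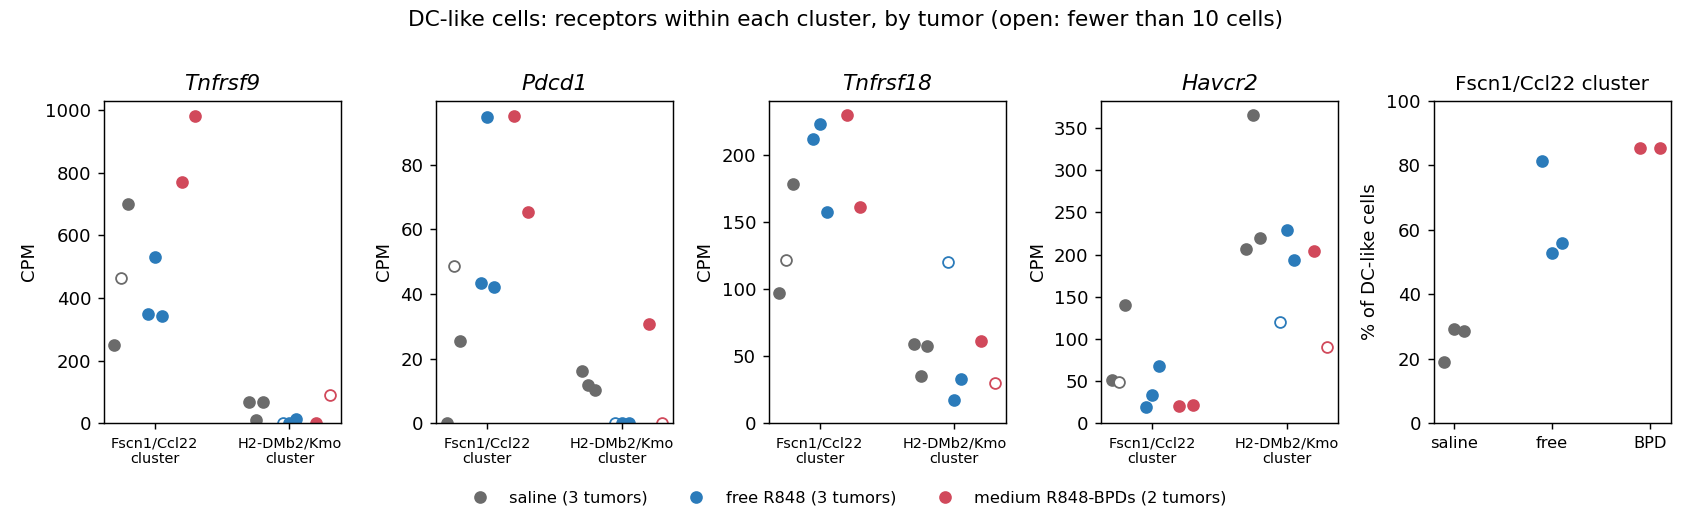
DC-like cells by tumor: CPM of 4 receptors in each of the 2 DC-like clusters, with open points for fewer than 10 cells, and the share of DC-like cells in the Fscn1/Ccl22 cluster. In the mean over tumors with at least 10 cells of a cluster, Tnfrsf9, Pdcd1 and Tnfrsf18 are higher and Havcr2 lower in the Fscn1/Ccl22 cluster. In saline replicate 1, Pdcd1 goes the other way (0 against 16.2 CPM). The Fscn1/Ccl22 cluster makes up 85.2% of DC-like cells in both medium R848-BPD tumors and 19.1% to 29.2% in the saline tumors.

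Ligands of the receptors moved in DC-like cells as well. Of 11 tested against saline, 4 rose, namely Cd70 (2.25, SE 0.40), which encodes the ligand of CD27, the genes of both PD-1 ligands, Pdcd1lg2 (2.09, SE 0.41) and Cd274 (1.91, SE 0.30), and Cd80, and 1 fell, Lgals3. Against the 16.1% of all genes called in this comparison, of 15 genes of receptor signalling 6 rose and 2 fell, and of 19 genes of activation and exhaustion, 6 rose, including Gzmb (2.80), Batf (2.29) and Tcf7 (1.76), and 3 fell, namely Nr4a2 (-2.16), the proliferation marker Mki67 (-2.12) and Nr4a1 (-1.83). Of 4 genes of the regulatory T cell list, 2 rose and 1 fell, the integrin gene Itgae (-2.41). Against free R848, Gzmb (3.58, SE 0.59) and Batf (1.86, SE 0.35) rose, and of 2 other receptors Btla rose (1.33, SE 0.29). These values were not split by cluster.

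In Cd8-positive T-like cells, 0 of 8 members passed in any of the 3 comparisons by edgeR, 0 had an unadjusted p under 0.05, and DESeq2 called 0. Of all 4790 genes of this class, 0.0626%, 0% and 0.0209% were called for medium R848-BPDs against free R848, free R848 against saline and medium R848-BPDs against saline, and 7.16%, 4.72% and 5.41% had an unadjusted p under 0.05. Pdcd1 was at 430 and 307 CPM after medium R848-BPDs, 564, 158 and 432 after free R848 and 281, 384 and 175 after saline, with overlap between all treatments. Havcr2 was at 53.3 and 123 CPM after medium R848-BPDs, 420, 47.5 and 336 after free R848 and 48.5, 361 and 87.4 after saline, so tumors of 1 treatment differed more than the treatments did. The log2 fold changes of the 8 members ranged from -1.86 to 0.14 against free R848 and from -1.40 to 0.36 against saline. Lag3 held 1 and 2 UMIs in the medium R848-BPD tumors, 41, 5 and 7 after free R848 and 1, 12 and 2 after saline, and was removed by the filter on low counts. Without that filter, Lag3 (adjusted p = 0.0111) and Havcr2 (-1.88, adjusted p = 0.000143) passed against free R848. In T-like cells undivided, Lag3 passed the filter, with 4 and 4 UMIs (3.91 and 10.1 CPM) after medium R848-BPDs, 46, 6 and 9 (72.7, 12.8 and 26.9 CPM) after free R848 and 5, 13 and 2 (12.6, 24.0 and 7.15 CPM) after saline. The prodrug tumors were below all free R848 tumors and overlapped with saline. Its log2 fold change was -2.68 against free R848 (SE 0.80, adjusted p = 0.376) and -1.42 against saline (SE 0.90, adjusted p = 0.917).

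In Cd8-negative T-like cells, Tnfrsf4 fell after medium R848-BPDs against free R848, by 5.61-fold. It was the 1 member of 8 that passed, against 0.167% of all genes. Its level was 77.0 and 27.0 CPM after medium R848-BPDs, 357, 276 and 316 after free R848 and 217, 62.5 and 117 after saline. The prodrug tumors were below all free R848 tumors and overlapped with saline. The log2 fold change was -2.49 (SE 0.45, adjusted p = 0.0389 by edgeR), and against saline -1.30 (SE 0.45, adjusted p = 0.559). The call was lost in 9 of 21 alternatives, among them without the T-like cluster with Lyz2 (-2.54, adjusted p = 0.196), without any 1 of the free R848 tumors (adjusted p 0.139 to 0.170), without prodrug replicate 2 (-2.07, adjusted p = 0.369) and without saline replicate 3 (adjusted p = 0.0671). The share of cells with a Foxp3 UMI, where Tnfrsf4 was high, was 7.06% and 2.08% after medium R848-BPDs (6 of 85 and 1 of 48 cells), 16%, 8.70% and 12.5% after free R848 and 18.5%, 5.56% and 7.25% after saline. In cells without a Foxp3 UMI, Tnfrsf4 was at 3.71 and 20.7 CPM after medium R848-BPDs and at 212, 28.7 and 57.8 after free R848 (-3.08, adjusted p = 0.460). The saline tumors were all above both prodrug tumors here and overlapped with the free R848 tumors. The part of the Foxp3-positive share in this result was not tested beyond these values. The summed level of 26 macrophage markers in Cd8-negative cells was 8489 and 15698 CPM after medium R848-BPDs, 6414 to 11241 after free R848 and 8723 to 25219 after saline, and its part in the result was not tested.

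The other members in Cd8-negative cells did not pass. Pdcd1 had a log2 fold change of 1.11 against saline (SE 0.38, adjusted p = 0.523), Havcr2 of -1.06 (SE 0.37, adjusted p = 0.559) and -1.01 against free R848 (SE 0.38, adjusted p = 0.749), and Tnfrsf18 of -0.89 against free R848 (SE 0.35, adjusted p = 0.760). Gzmb (1.07, SE 0.17, against saline) was the 1 listed gene that passed in either T-like class in any of the 3 comparisons.

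The third question is how the receptors divide the T-like cells themselves, which the labels do not set but the sum of each kind of cell in the same tumor allows to be tested with the tumor as a block. Between Cd8-positive and Cd8-negative cells, 1 of 8 members passed, against 1.98% of all genes. Pdcd1 was 1.62-fold higher in Cd8-positive cells, at 342 ± 138 against 210 ± 105 CPM (SD, n = 8), and higher in 8 of 8 tumors. Its log2 difference was 0.69 (SE 0.17, adjusted p = 0.0392 by edgeR), but the call was lost in 12 of 17 alternatives, including DESeq2 (adjusted p = 0.0688), the T-like cells without the Lyz2 cluster (0.34, adjusted p = 0.440) and only cells with a Cd3 UMI (0.25, adjusted p = 0.704). It was also lost when medium R848-BPD replicate 2, free R848 replicate 1 or any saline tumor was left out (adjusted p 0.0564 to 0.1299). Havcr2 had a log2 difference of 0.93 (SE 0.32, adjusted p = 0.167), higher in 6 of 8 tumors, and Icos of -0.42 (SE 0.16, adjusted p = 0.2503), higher in 2 of 8. Of the listed genes, the chemokine receptor gene Ccr7 (1.59, SE 0.20) and the adaptor gene Sh2d2a (0.50, SE 0.12) were higher and Nr4a1 (-0.89, SE 0.21) and Lgals3 (-0.53, SE 0.11) lower in Cd8-positive cells. The summed macrophage markers were at 4444 to 16147 CPM in Cd8-positive and 6414 to 25219 CPM in Cd8-negative cells, and higher in the latter in 6 of 8 tumors. Without the Lyz2 cluster, Lgals3 changed direction (1.23, adjusted p = 0.0249), Ccr7 stayed higher (1.56, adjusted p = 0.00261), and Nr4a1 (-1.04, adjusted p = 0.0814) and Sh2d2a (0.50, adjusted p = 0.0905) did not pass.

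Foxp3-positive cells carried the co-stimulatory receptors at high levels. Of 411 Cd8-negative cells, 38 had a Foxp3 UMI, 12 of them exactly 1, and 81.6% of the 38 also had a Cd4 UMI against 8.31% of the Foxp3-negative cells. In the 4 tumors with at least 5 cells of both kinds (6, 6, 10 and 5 Foxp3-positive cells), 5 of 7 members tested were higher in Foxp3-positive cells, against 4.71% of all genes called. Tnfrsf4 was at 1539 CPM in Foxp3-positive cells of free R848 replicate 3, 1295 in medium R848-BPD replicate 1, 1019 in saline replicate 1 and 619 in saline replicate 3, against 57.8, 3.71, 49.3 and 64.5 in Foxp3-negative cells of the same tumors. The ranges were far apart, and the log2 difference was 4.93 (SE 0.52, adjusted p = 4.78e-05 by edgeR), or 30.4-fold. In the tumors with fewer than 5 Foxp3-positive cells the direction was the same, so that Tnfrsf4 was higher in 8 of 8 tumors.

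Ctla4 was 6.45-fold higher in Foxp3-positive cells (587 ± 220 against 92.2 ± 56.6 CPM, SD, n = 4, log2 difference 2.69, SE 0.40, adjusted p = 0.000544), and higher in 8 of 8 tumors. Icos was 4.25-fold higher (1445 ± 373 against 338 ± 77.9 CPM, log2 difference 2.09, SE 0.27, adjusted p = 0.000249), also in 8 of 8 tumors. Tnfrsf18, the neighbour of Tnfrsf4, was 4.23-fold higher (1462 ± 524 against 341 ± 92.2 CPM, log2 difference 2.08, SE 0.27, adjusted p = 0.000249), in 7 of 8 tumors. These 3 genes and Tnfrsf4 passed in every alternative run for them, 10 for Ctla4 and 11 for each of the others. Tnfrsf9 was 2.27-fold higher (1986 ± 1049 against 819 ± 141 CPM, log2 difference 1.18, SE 0.30, adjusted p = 0.0306), but this was lost in 5 of 11 alternatives, including DESeq2 (adjusted p = 0.0947) and the test without free R848 replicate 3 (0.84, adjusted p = 0.197), without medium R848-BPD replicate 1 (adjusted p = 0.112) or without saline replicate 1 (adjusted p = 0.145). Pdcd1 (1.42, SE 0.48, adjusted p = 0.118) and Tigit (1.63, SE 0.50, adjusted p = 0.0812) did not pass, and Havcr2 and Lag3 were removed by the filter on low counts. Without the Lyz2 cluster, 7 members passed, but the share of all genes called in that setting is not given here.

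Genes known from regulatory T cells differed in the same comparison. Il2ra, the high-affinity interleukin-2 receptor chain, was at 2.91 on the log2 scale (SE 0.27, 2460 against 390 CPM over the 4 tumors), and Ikzf2, which encodes Helios, was the other of 3 tested genes of this list that was higher. All 4 other receptors tested were higher, with Klrg1 at 3.08 and Cd5 at 3.05, and the others were Cd2 and Cd28. Of 19 genes of activation and exhaustion, 4 were higher, namely Il2ra, which is in both lists, Entpd1 (2.85), Batf (2.47) and Il7r (1.76), and 3 were lower, namely Prf1 (-2.72), Nr4a3 (-1.74) and Tcf7. Tcf7 had 0 UMIs in Foxp3-positive and 232 in Foxp3-negative cells of the 4 tumors, which at a floor of 3 counts over the group is at least 9.24-fold lower. Among the 13 genes of receptor signalling, Pik3r1 (-2.13), a subunit of phosphoinositide 3-kinase, was lower. The gate uses Foxp3 itself, which was left out of the test, and a cell without a Foxp3 UMI may still express the gene. Only 67.9% of all Cd8-negative cells had a Cd3 UMI, so the Foxp3-negative side also holds cells without one. The part of this in the listed genes was not tested, and they were not compared again without the Lyz2 cluster.

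**Figure D5:**
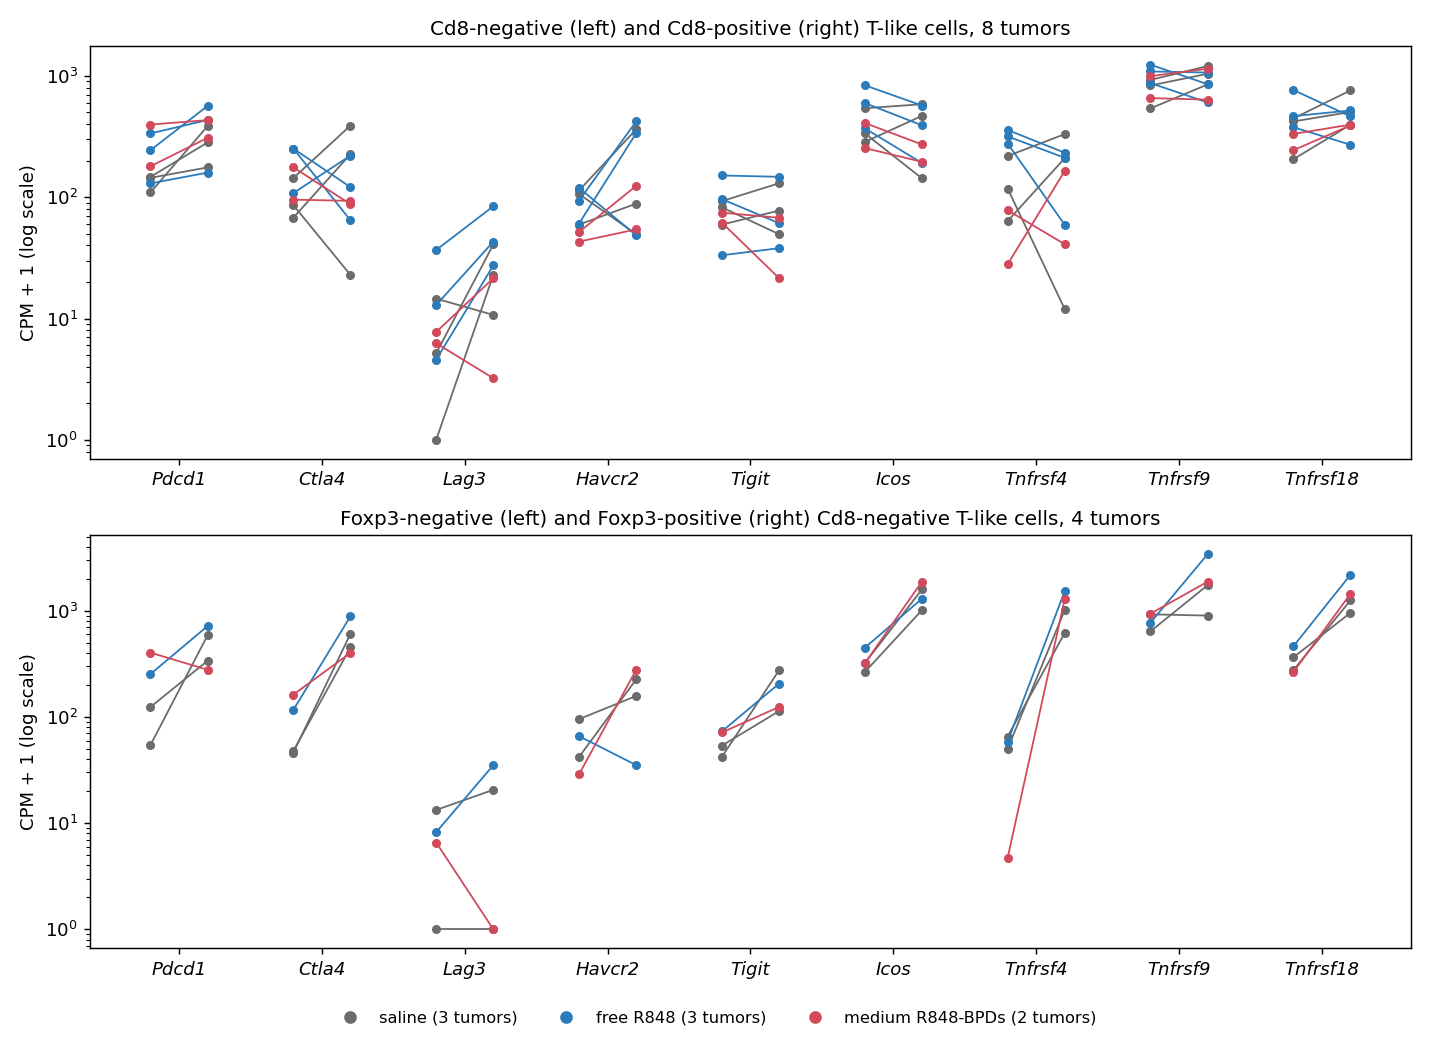
Receptors in paired kinds of T-like cells of the same tumor, as CPM plus 1 on a log axis, with 1 line per tumor coloured by treatment. Pdcd1 is higher in Cd8-positive cells in 8 of 8 tumors (upper panel), and in the 4 tumors tested Tnfrsf4, Ctla4, Icos and Tnfrsf18 are all higher in Foxp3-positive cells (lower panel).

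Ctla4, Icos and Havcr2, among others, had log2 fold changes of opposite sign in NK-like and T-like cells when medium R848-BPDs were compared with free R848, so the difference itself was tested, with T-like cells undivided and the tumor as a block. In T-like cells Ctla4 was at -0.64, Icos at -0.66 and Havcr2 at -1.92 on the log2 scale, against 1.28, 0.81 and 0.81 in NK-like cells. The test called 0 of 9 members, against 0.0115% of 8732 genes. The difference of responses was -1.90 for Ctla4 (SE 0.40, adjusted p = 0.181), -1.39 for Icos (SE 0.31, adjusted p = 0.238) and -2.69 for Havcr2 (SE 0.61, adjusted p = 0.238). It was negative for all 9 members, and for 7 of them the unadjusted p was under 0.05, as it was for 408 of all 8732 genes, while DESeq2 called 0 members. Tnfrsf4 is counted in both, although it had too few UMIs to be tested in NK-like cells and passed the filter here through its T-like sums. Its values therefore say little about a difference of responses.

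Receptors were also counted within single cells, with each cell drawn to 1000 UMIs so that deeper cells do not show more genes. Among NK-like cells, 2 or more of the 9 receptors were found in 49.1% and 52.3% of cells after medium R848-BPDs, 34.4%, 33.1% and 19.7% after free R848 and 24.4%, 31.7% and 32.1% after saline. Both prodrug tumors were above the other 6. The means were 50.7% ± 2.27 (n = 2), 29.0% ± 8.15 (n = 3) and 29.4% ± 4.34 (n = 3), and the difference from free R848 was 21.6 points (p = 0.1 by exact permutation, two-sided, which is the lowest p possible with 2 against 3 tumors). With 3 or more receptors the shares were 22.8% ± 9.55, 8.54% ± 3.47 and 5.43% ± 2.65. Without drawing to a fixed depth, nearly all NK-like cells had 2 or more (91.5%, 92.0% and 86.0%), and the difference from free R848 was -0.46 points.

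Among T-like cells, 2 or more receptors were found in 52.1% and 40% of cells after medium R848-BPDs, 58.2%, 29.3% and 52.6% after free R848 and 44.0%, 43.9% and 38.6% after saline. The treatments overlapped, and the difference from free R848 was -0.66 points (exact permutation test, p = 0.9). The 2 kinds of T-like cell lay on opposite sides, at -10.01 points in Cd8-positive (exact permutation p = 0.6) and 9.14 in Cd8-negative cells (exact permutation p = 0.3). These directions depended on the setting, since Cd8-negative cells were at -2.01 points when drawn to 2000 UMIs and at -4.87 for 3 or more receptors, and Cd8-positive cells at 0.59 for 3 or more receptors. Without the T-like cluster with Lyz2, Cd8-negative cells with 2 or more receptors made up 51.7% and 64.7% after medium R848-BPDs, 50%, 38.5% and 50% after free R848 and 44.1%, 44.4% and 45.5% after saline. Both prodrug tumors were then above the other 6, with a difference from free R848 of 12.03 points (exact permutation p = 0.1, again the lowest possible), on 60 and 17 prodrug cells. In Cd8-positive cells without that cluster the difference was -14.4 points (exact permutation p = 0.5), on 49 and 9 prodrug cells. Over all tumors, 29 of 36 pairs of receptors in Cd8-positive cells (302 cells) and 33 of 36 in Cd8-negative cells (399 cells) were found together more often than the product of their shares, with a median ratio of 1.22 and 1.47. In NK-like cells (992 cells) this held for 19 of 36 pairs, with a median ratio of 1.01, and 9 pairs were in no cell. Tnfrsf4 and Tnfrsf18 were together in 20 of 399 Cd8-negative cells, 5.01% against a product of 2.43%. These are counts over pooled cells of 8 tumors that differ in level, and are given without a test.

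Over the 48 sums of 6 classes and 8 tumors, the genes whose log2 CPM followed each receptor most closely were mostly T cell genes. For Icos they were Cd2 (Pearson's r 0.97) and Cd28 (0.97), for Tigit Icos (0.96) was among them, and for Ctla4 they were Cd247 (0.95) and Trbc2 (0.95). For Pdcd1 they were Sdf4 (0.93) and Rora (0.93), and for Lag3 Sdf4 (0.80) and Cd27 (0.80). Tnfrsf9 was followed by Tnfrsf18 (0.95), Tnfrsf18 by Il12rb2 (0.97) and P2ry10 (0.96), and Tnfrsf4 by Adam19 (0.89) and Cd5 (0.87). The 2 nearest to Havcr2, Adssl1 (0.92) and Gnai2 (0.91), are not T cell markers. The sums share libraries and depth, and the coefficients are descriptive.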

How the data were processed

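Single cells of 8 MC38 tumors were sequenced by Seq-Well, with tumors grouped by the labels' treatment (saline, n = 3, free R848, n = 3, medium R848-BPDs, n = 2). Per the labels, the cells of each mouse were loaded separately, so the replicate is the tumor of 1 mouse. The authors deposited tables of UMI counts per gene and cell, and the submitters' processing notes name bcl2fastq and mm10, while the aligner and gene annotation are not given in the sources used here. Barcodes were kept between 400 and 10000 genes, below 50000 UMIs and up to 15% of UMIs from mitochondrial genes. Scrublet (expected rate 0.05) marked 67 doublets, which were kept and left out as an alternative.

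Cells were clustered with Seurat 5.3.0 and named from marker genes, so names may differ from the study's. All cells were first clustered (30 components, resolution 0.8) without the 9 receptors and the listed genes, 98 genes in all. The cluster with the highest median mitochondrial share, 328 cells with few UMIs, was then removed. The non-malignant cells were clustered again (11 components, resolution 1.3), now also without the genes of the study's expression table, 1050 genes in all. Counts were summed per tumor and class with at least 10 cells (5 for Foxp3-positive cells) and tested with edgeR 4.0.16 (TMM, filterByExpr, quasi-likelihood F test, all 3 treatments in 1 fit per class, Benjamini-Hochberg adjustment over the genes of the class, threshold 0.05). The SE was taken from the fold change and its F value. CPM is the share of a class's UMIs times 1000000. Shares of cells with a receptor used cells drawn to 1000 UMIs (2000 as an alternative), leaving out shallower cells, and were compared by exact permutation over tumors. For a count of 0, the floor is 3 counts, which covers counting error only. DESeq2 1.42.0, other size factors, no count filter, other clusters and gates, left-out tumors and a replicate block were tried as alternatives. Scripts were tested on simulated data.

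The receptors and gene lists (19 other receptors, 15 ligands, 18 genes of receptor signalling, 29 of activation and exhaustion, 9 of regulatory T cells) were chosen with earlier results of these data known. All receptors were to be named, and of the lists at most the 10 called genes with the largest change per comparison. Genes named beyond this, to complete small counts, were chosen after their values were seen. For likeness, the 2 genes with the highest Pearson's r of log2 CPM (prior count 2) were named for each receptor, among genes that averaged 4 or more on this scale in the class where the receptor was highest. Some of these are not reported here. Versions were R 4.3.3, Python 3.11.15, numpy 2.4.6, scipy 1.17.1, pandas 2.3.3 and matplotlib 3.10.9.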

Additional observations from a re-analysis of the deposited data

How the results depend on the processing

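Of 288 repeats of the 16 called differences under alternative settings, 238 kept the call, 48 kept the direction without it and 2 changed direction. The latter were both Tnfrsf9 in the DC-like cluster led by Kmo, at -3.65 against free R848 and -6.75 against saline on the log2 scale, where 1 medium R848-BPD tumor had at least 10 cells and held 0 UMIs of the gene, so that these are no bounds. Of 107 differences that were not called, 44 changed sign and 24 were called in some alternative. Without the filter on low counts, 10, 4 and 14 members were called in the comparisons of medium R848-BPDs with free R848, free R848 with saline and medium R848-BPDs with saline (3, 0 and 7 with it), and 1527, 1039 and 3350 genes against 268, 52 and 1750. With only the compared treatments in the fit, 6 members and 639 genes were called in the first, and 8 and 1315 genes in the others. DESeq2 called 460, 129 and 1573 genes. With 1 DC-like cluster in place of the class, chosen after seeing the data, the third comparison called 3 members over the 5 classes for either cluster. These were the calls of Ctla4 and Icos in NK-like and Havcr2 in monocyte/macrophage-like cells, which this setting leaves unchanged. The DC-like calls were lost. Leaving out 1 tumor gave 0 to 5, 0 to 1 and 4 to 8 members. The first fell to 0 without medium R848-BPD replicate 2 or either of free R848 replicates 2 and 3, and rose to 5 without saline replicate 2, the second rose to 1 without free R848 replicate 3, and the third fell to 4 without medium R848-BPD replicate 1.

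Between Cd8-positive and Cd8-negative cells, 1 member was called, but 2 without the filter and 0 by DESeq2, with other clusters, without doublets, without the T-like cluster with Lyz2, with a gate of at least 2 UMIs against none and in drawn cells. Leaving out 1 tumor gave 0 to 2 members. The Foxp3 comparison called 4 to 7 members throughout, and the shares of all genes called in its alternatives are not given here. The test of the difference between T-like and NK-like responses called 3 members without the filter and 0 in the other alternatives. The T-like difference in the share with 2 or more receptors, -0.66 points, became 1.88 without drawing to a fixed depth, 2.30 with the replicate block and -9.38 to 5.40 with 1 tumor left out, with a change of sign when medium R848-BPD replicate 2 (5.40) or free R848 replicate 1 (5.11) or 3 (2.30) was left out. The NK-like difference, 21.6 points, became -0.46 without the draw, 16 when drawn to 2000 UMIs (exact permutation p = 0.2) and 16.9 to 24.3 with 1 tumor left out. The cause of these shifts was not tested.

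Replicate numbers recur across treatments, but not every pair of same-numbered tumors deviated together (correlations of -0.25 to 0.24, over 0.1 in 7 of 35 pairs, against 12 of 70 for different numbers, and in Cd8-positive cells alone 4 of 7 against 1 of 14). Deviations from the mean of a treatment cancel out within it, so these counts are tied to each other and cannot decide whether the numbers are a pairing. The numbers were not taken as a pairing. With the replicate block, 2, 0 and 8 members and 144, 5 and 1071 genes were called in the 3 comparisons, and the NK-like share differed by 16.9 points. Icos in NK-like cells against saline (0.86, adjusted p = 0.101) and Tnfrsf9 in DC-like cells against free R848 (1.68, adjusted p = 0.0863) lost their calls there. The T-like classes rest on 17 to 85 cells per tumor, and the medium R848-BPD group on 2 tumors.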
